A study of Populus ussuriensis with 18 samples.

Results

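The loci described are the 4 secondary wall cellulose synthase genes CesA4 (Potri.002G257900), CesA7-A (Potri.006G181900), CesA8-A (Potri.011G069600) and CesA8-B (Potri.004G059600), 4 of the 36385 loci in the tables. They were chosen by their locus identifiers, which are those of Populus trichocarpa, and all 4 passed the filter on low values with 26765 loci in all. The locus prefixes place them on chromosomes 2, 6, 11 and 4 of that species. Positions, exons and sequences are not given, because no genome or annotation was used here.

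Cellulose synthase subunits assemble into a complex in the plasma membrane that spins cellulose microfibrils into the wall. In Arabidopsis, CESA4, CESA7 and CESA8 form the complex of the secondary wall, and losing any of them leaves collapsed xylem vessels. Their poplar counterparts are known for high transcript levels in developing wood, where they serve vessels and fibres that thicken their walls before they die. CesA8-A and CesA8-B are duplicate copies of the same subunit, and CesA7-A has a partner copy that was not analysed here.

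Stem pieces of Populus ussuriensis, a poplar, were cut from in vitro plants 2 weeks old, and the lowest 0.5 cm was harvested at 0, 0.5, 1, 2, 6, 12, 24, 48 and 96 h after cutting. The plants of every group were grown on the same sucrose medium under long days, and the labels name no mutant, transgene, hormone or other agent in any group. With 2 libraries of total RNA per time point there are 18. Whether these came from separate or pooled plants is not stated, so p-values measure the spread between libraries, which may be technical. Roots form at such cut ends in the following days, and the series follows that period.

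Levels are FPKM, reads scaled by transcript length and by library size, summed over the listed transcripts of a locus. The steps between low FPKM values, with an assumed factor of 2, gave read totals in a range of 28460174 to 30651834 for the 16 libraries after cutting. The same search matched the 0 h tables less closely, and whole reads were not checked there, so the totals of 21914687 and 25026280 for these 2 libraries are rough estimates. From 0.5 h to 96 h each library held between 3124 and 21875 reads of CesA4 and between 730 and 4054 reads of CesA8-A. The 0 h tables differ in kind from the others, by their headers, the read total search and the transcript shares of CesA7-A and CesA8-B. Whether processing or a change in transcript use underlies these shares was not tested. Transcript 1 of CesA8-B held 33.9% to 38.9% of the locus in the 16 later libraries, against 0.130% and 0.156% at 0 h. In this bulk tissue, fewer cells of a type and less RNA per cell cannot be told apart. Markers of xylem or of other cell types were not analysed here, because the files pair no gene names with identifiers.

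All 4 secondary wall cellulose synthases were high in the freshly cut stem and low after 2 days. CesA4 was the highest of the 4 in all 18 libraries. Its levels in FPKM were 182 and 177 (0 h), 199 and 177 (0.5 h), 128 and 111 (1 h), and 82.3 and 119.5 (2 h). They were then 112.5 and 100.3 (6 h), 101 and 72.7 (12 h), and 70.5 and 82.3 (24 h). The last levels were 30.2 and 28.4 (48 h) and 31.4 and 34.0 (96 h). The 4 libraries of 48 and 96 h lie below every earlier library. The share of all loci with this order was not counted, here or for the genes that follow.

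CesA7-A, the second subunit of the complex, had FPKM levels of 109 and 94.0 (0 h) and of 109 and 98.7 (0.5 h). Levels of 73.3 and 67.9 (1 h), 71.8 and 92.4 (2 h), 62.4 and 52.9 (6 h), and 44.1 and 34.3 (12 h) followed. It ended with 27.6 and 33.4 (24 h), 10.1 and 10.5 (48 h), and 11.5 and 10.7 (96 h). Its mean was lower at each time from 6 h to 48 h than at the one before, and the libraries of 48 and 96 h lie below all others.

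CesA8-B, the more abundant copy of the third subunit, ran close to CesA7-A. Its FPKM levels were 97.2 and 90.0 (0 h), 106 and 93.2 (0.5 h), 78.1 and 74.0 (1 h), and 68.9 and 87.5 (2 h). Next came 64.6 and 54.3 (6 h), 43.5 and 30.1 (12 h), and 29.7 and 37.2 (24 h). It closed with 13.6 and 15.0 (48 h) and 12.9 and 13.7 (96 h). The levels at 48 and 96 h overlap, and both lie below all earlier libraries.

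CesA8-A, the other copy of that subunit, was the lowest of the 4 in every library except the 96 h library 2, where CesA7-A was lower. In FPKM it had 39.5 and 36.8 (0 h), 36.9 and 30.5 (0.5 h), 25.1 and 21.7 (1 h), and 20.6 and 27.8 (2 h). Levels of 35.0 and 29.9 (6 h), 22.4 and 17.6 (12 h), and 15.2 and 18.2 (24 h) followed. The last were 7.22 and 6.64 (48 h) and 10.2 and 11.7 (96 h). Of the 4 loci, CesA8-A alone had both libraries of 6 h above both of 2 h. Both libraries of 96 h exceeded both of 48 h in CesA8-A, CesA4 and CesA7-A, but not in CesA8-B. The share of all loci with either order was not counted. From 48 h to 96 h the log2 fold changes of CesA4 and CesA7-A were only 0.15 and 0.09, against a median of 0.074 over all tested loci.

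**Figure D1:**
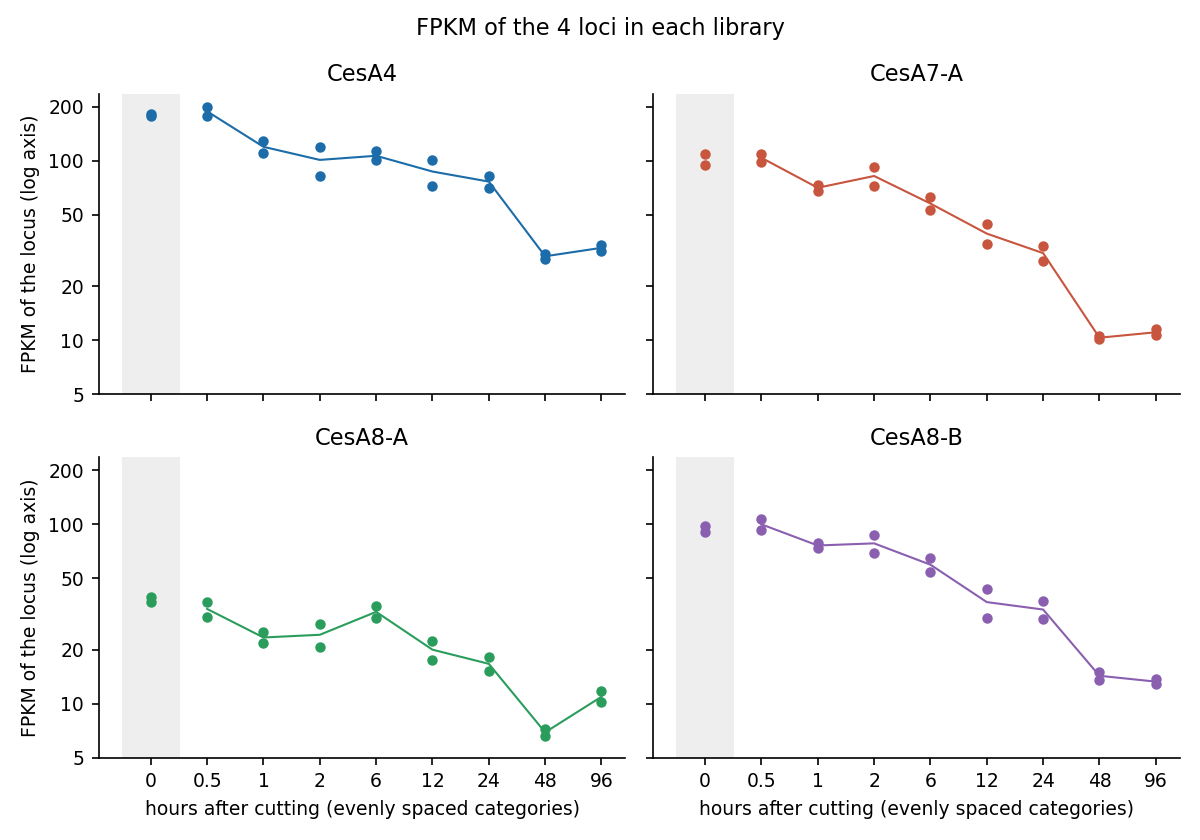
FPKM of each locus (vertical, log axis) in each of the 18 libraries (points) against hours after cutting (horizontal, evenly spaced categories), with a line through the means of 2 libraries after cutting and the 0 h tables, which differ in kind, on grey. CesA4 goes down to 28.4 FPKM at 48 h, and CesA8-A shows a second high at 6 h.

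Against all tested loci these genes moved out of the top of the range. At 48 h CesA4 exceeded 85.2% and 84.1% of the tested loci, CesA7-A 59.6% and 60.9%, CesA8-B 68.1% and 70.5%, and CesA8-A 49.7% and 47.8%. At 0.5 h CesA4 exceeded 98.8% and 98.3% of them, CesA7-A 97.0% and 96.3%, CesA8-B 97.0% and 96.0%, and CesA8-A 88.6% and 85.6%. The 4 loci together summed to 60.9 ± 0.425 FPKM at 48 h and to 425 ± 36.9 FPKM at 0.5 h (SD, n = 2 each).

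Changes were tested with limma on log2(FPKM + 1) over all 18 libraries, fitting each time point's mean, and fold changes are on that scale. Among the 8 time points after cutting all 4 loci changed by the F test, with Benjamini-Hochberg adjusted p between 2.1e-10 for CesA7-A and 9.88e-08 for CesA8-A. Of all tested loci 91.3% did so too, which leaves the count of 4 without weight. The size of the F statistic separates them more. It was larger in 2.50% of the tested loci than in CesA7-A, in 6.35% than in CesA8-B, in 12.9% than in CesA4 and in 19.6% than in CesA8-A.

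The late phase of 24, 48 and 96 h was set against the early phase of 0.5, 1 and 2 h, each with 6 libraries. As each time point had its own mean, SE and p measure the spread between libraries of the same time. The spread between the times of a phase does not enter them. All 4 genes fell, while 27.2% of tested loci were lower in the late phase. CesA7-A ranged from 10.1 to 33.4 FPKM late, with a median of 11.1, and from 67.9 to 109 FPKM early, with a median of 82.8. It fell by 2.39 on the log2 scale (SE 0.085, limma adjusted p 4.06e-12), 5.24-fold. CesA8-B ranged from 12.9 to 37.2 FPKM late, with a median of 14.3, and from 68.9 to 106 FPKM early, with a median of 82.8. It fell by 2.12 (SE 0.095, limma adjusted p 4.25e-11), 4.33-fold.

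CesA4 ranged from 28.4 to 82.3 FPKM late, with a median of 32.7, and from 82.3 to 199 FPKM early, with a median of 124. Its highest late and lowest early library differ by less than 0.1 FPKM. It fell by 1.62 on the log2 scale (SE 0.099, limma adjusted p 1.21e-09), 3.07-fold. CesA8-A, with 6.64 to 18.2 FPKM late around a median of 10.9 and 20.6 to 36.9 FPKM early around a median of 26.5, had the least change of the 4. It fell by 1.22 (SE 0.092, limma adjusted p 1.25e-08), 2.33-fold. In all 4 loci every late library lies below every early one, as in 12.1% of the tested loci.

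The median log2 fold change of the 4 loci was -1.87, against 0.233 over all tested loci. A more negative value was found in 2.33% of tested loci for CesA7-A and in 7.80% for CesA8-A. Quantile normalization, which forces equal distributions on the libraries, moved the median of all loci to 0.072, and the 4 changes then lay between -2.45 for CesA7-A and -1.34 for CesA8-A. Relative to the median of all loci in the authors' scaling, they lay between -2.62 and -1.45.

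The end points give the same order. At 96 h against 0.5 h, where 22.1% of tested loci were lower, all 4 fell. CesA7-A was at 10.7% of its 0.5 h mean at 96 h, CesA8-B at 13.3%, CesA4 at 17.4% and CesA8-A at 32.5%. The log2 fold changes were -3.12 (SE 0.147) for CesA7-A, -2.82 (SE 0.164) for CesA8-B, -2.49 (SE 0.171) for CesA4 and -1.54 (SE 0.16) for CesA8-A. The limma adjusted p lay between 4.66e-10 and 1.02e-06.

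Between consecutive times the calls were unevenly spread. From 0.5 h to 1 h, when 30.3% of tested loci fell, CesA4, CesA7-A and CesA8-A did. Their log2 fold changes were -0.65, -0.55 and -0.51, with limma adjusted p of 0.00663, 0.00763 and 0.0186. CesA8-B changed by -0.38 and missed the threshold (limma adjusted p 0.0714). At the same value it was called with the compared libraries alone (limma adjusted p 0.0386) and without either 12 h library. This step is modest beside the median of all loci, which was -0.165. It also rests on single libraries. Without 0.5 h replicate 1 the changes of CesA4, CesA7-A and CesA8-A were -0.57, -0.48 and -0.37, without 1 h replicate 2 they were -0.55, -0.49 and -0.41, and none of the 3 was then called. With an equal upper quartile the CesA8-A call was lost as well, at -0.38 (limma adjusted p 0.0726).

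From 1 h to 2 h none of the 4 loci was called, against 36.4% of tested loci in either direction. The 2 libraries of 2 h lie far apart in all 4 genes. Library 2 exceeded library 1 by a factor of 1.45 in CesA4, 1.35 in CesA8-A, 1.29 in CesA7-A and 1.27 in CesA8-B. Without 2 h replicate 2, CesA4 was called lower at 2 h than at 1 h with a log2 fold change of -0.53 (limma adjusted p 0.0433).

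From 2 h to 6 h the calls among the members went in opposite directions, while the median log2 fold change over all tested loci was 0.149. CesA8-A was called higher at 6 h, with a log2 fold change of 0.42 (SE 0.16, limma adjusted p 0.0385), as were 34.2% of tested loci. CesA7-A was called lower at 6 h, with -0.50 (SE 0.147, limma adjusted p 0.0108), as were 18.3%. CesA8-B, at -0.38, and CesA4, at 0.10, were not called. The CesA8-A call is near the threshold. Quantile normalization, with a log2 fold change of 0.35 and a limma adjusted p of 0.0815, and scaling to an equal upper quartile, with 0.32 and 0.111, ended it. It was also lost with no filter on low values, with the compared libraries alone and with neither trend nor robust estimation, at limma adjusted p of 0.0553, 0.0552 and 0.0515, and without 2 h replicate 1 or 6 h replicate 1, with 0.21 and 0.31. The CesA7-A call was lost without 2 h replicate 2, at -0.32, and without 6 h replicate 2, at -0.38. CesA8-B was called lower at 6 h without 2 h replicate 1, at -0.55, and without either 12 h library, at -0.38. Scaling to an equal upper quartile also gave this call, at -0.49 (limma adjusted p 0.0213).

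From 6 h to 12 h, when 9.61% of tested loci fell, CesA8-B, CesA8-A and CesA7-A fell, with log2 fold changes of -0.69, -0.68 and -0.55. Their limma adjusted p were 0.00723, 0.00701 and 0.0144. CesA4 changed by -0.31 and was not called. Without 6 h replicate 1 the values of CesA8-B, CesA8-A and CesA7-A were -0.57, -0.57 and -0.43, and without 12 h replicate 2 they were -0.44, -0.51 and -0.37. None of the 3 was called in either case. From 12 h to 24 h, when 19.4% of tested loci changed in either direction, none of the 4 was called.

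**Figure D2:**
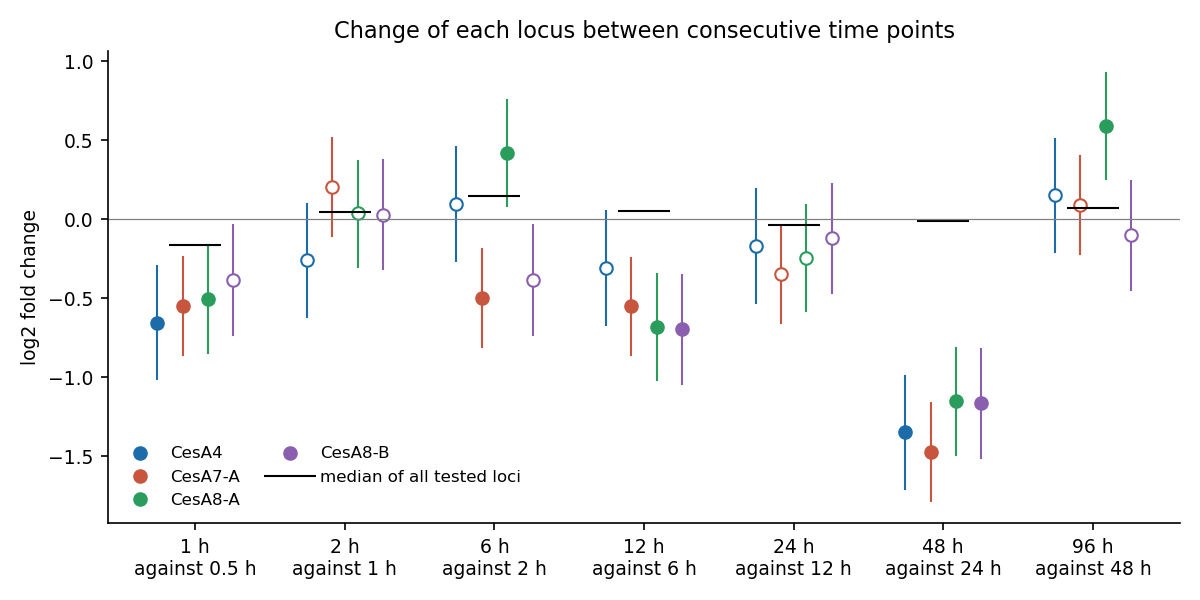
Log2 fold change of each locus (vertical, on log2(FPKM + 1)) for the 7 consecutive comparisons after cutting (horizontal), with limma's 95% interval, filled symbols for loci called at an adjusted p below 0.05, open symbols for the others, and a black dash for the median of all tested loci. The step from 24 h to 48 h is the one in which all 4 were called, with values from -1.47 to -1.15.

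The step from 24 h to 48 h was the largest of the 7 for each locus, and the one with the fewest loci called in all. All 4 fell, against 2.66% of tested loci. CesA7-A had 10.1 and 10.5 FPKM at 48 h, against 27.6 and 33.4 FPKM at 24 h, and fell by 1.47 on the log2 scale (SE 0.147, limma adjusted p 4.11e-05). CesA4 fell by 1.35 (SE 0.171, limma adjusted p 2.63e-04), with 30.2 and 28.4 FPKM at 48 h, against 70.5 and 82.3 FPKM at 24 h. CesA8-B fell by 1.16 (SE 0.164, limma adjusted p 6.49e-04) and CesA8-A by 1.15 (SE 0.16, limma adjusted p 5.63e-04).

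The median of the 4 changes was -1.25, against -0.009 over all tested loci. In all, 160 tested loci, the 4 included, had a log2 fold change as low as that of CesA8-A or lower, and 151 of these 160 were called lower. Over all tested loci 712 were called lower. Both times are whole days after 0 h, so the same clock time is compared if harvests kept to the schedule. Every alternative fit that covers this step called all 4, though many of these fits leave the fold change itself as it is.

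**Figure D3:**
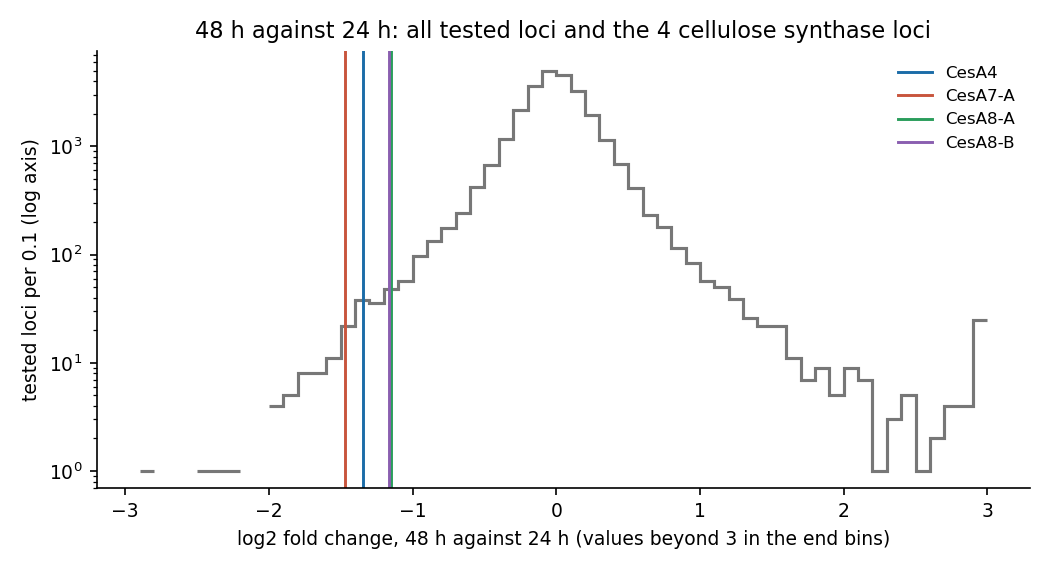
Number of tested loci per 0.1 of log2 fold change (vertical, log axis) against the log2 fold change of 48 h over 24 h (horizontal), with a vertical line for each of the 4 loci and values beyond 3 in the end bins. The lines stand between -1.47 and -1.15, in the lower tail of a distribution with a median of -0.009.

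From 48 h to 96 h CesA8-A was called higher at 96 h, with 10.2 and 11.7 FPKM, against 7.22 and 6.64 FPKM at 48 h. Its log2 fold change was 0.59 (SE 0.16, limma adjusted p 0.0128), and 18.7% of tested loci were higher at 96 h. The others were not called, with 0.15 for CesA4, 0.09 for CesA7-A and -0.10 for CesA8-B. The CesA8-A call was lost without 48 h replicate 2, at 0.53, and without 96 h replicate 2, at 0.49.

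Other comparisons at an equal or near-equal clock time had the same sign. At 24 h against 0.5 h, where 22.0% of tested loci were lower, all 4 fell, with log2 fold changes of -1.74 for CesA7-A, -1.55 for CesA8-B, -1.29 for CesA4 and -0.97 for CesA8-A. Their limma adjusted p lay between 2.1e-07 and 1.24e-04. At 96 h against 24 h, where 11.4% were lower, all 4 fell again, with -1.38, -1.26, -1.20 and -0.56 in the same order of loci (limma adjusted p of at most 0.0152). Without 24 h replicate 2 or 96 h replicate 1 the value of CesA8-A was -0.44 or -0.47 and was not called. No uncut stem of a later time was among the libraries, so growth and cutting cannot be told apart.

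Against 0 h the comparison carries the difference between the tables. At 0.5 h none of the 4 was called, against 49.7% of tested loci in either direction. The log2 fold changes with 95% intervals were 0.06 (-0.30 to 0.43) for CesA4, 0.03 (-0.28 to 0.35) for CesA7-A, -0.18 (-0.52 to 0.16) for CesA8-A and 0.09 (-0.26 to 0.44) for CesA8-B. With the leading transcript in place of the sum, CesA7-A and CesA8-B were called lower at 0.5 h, at -0.68 and -0.53. Both have 2 listed transcripts, which the 0 h tables divide differently. At 48 h all 4 were lower than at 0 h, as were 26.0% of tested loci, with log2 fold changes of -3.17 for CesA7-A, -2.63 for CesA8-B, -2.57 for CesA4 and -2.30 for CesA8-A. At 96 h all 4 were lower as well, against 22.5% of tested loci, with -3.08, -2.73, -2.42 and -1.72 in that order. The limma adjusted p of these 8 values was at most 3.23e-07.

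The proportions of the 4 genes shifted while they fell. FPKM is scaled by length, so levels of different loci can be set beside each other, and ratios between loci within a library do not depend on its read total. CesA4 made up 46.9% to 49.4% of the summed FPKM of the 4 loci in the late libraries and 33.8% to 44.3% in the early ones. CesA7-A held 15.2% to 19.5% late and 24.1% to 29.5% early. CesA8-A held 10.6% to 16.7% late and 7.65% to 8.51% early. CesA8-B overlapped, with 19.5% to 24.7% late and 23.4% to 28.3% early.

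The log2 ratio of each of the 6 pairs was compared between the 6 late and 6 early libraries with a two-sided exact permutation test, adjusted by Benjamini-Hochberg over the 6. CesA8-A over CesA7-A ranged from 0.543 to 1.10 late and from 0.287 to 0.343 early, a difference of 1.17 on the log2 scale (adjusted exact p 0.00325). CesA8-A over CesA8-B ranged from 0.443 to 0.857 late and from 0.293 to 0.347 early, a difference of 0.88 (adjusted exact p 0.00325). In both pairs every late library lies above every early one. The unadjusted exact p of both, 0.00216, is the smallest that 6 against 6 libraries allow. How often other pairs of loci separate in this way was not counted for any of the 6 ratios. The ratios restate the unlike fold changes of the loci given above.

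CesA7-A over CesA4 ranged from 0.313 to 0.407 late and from 0.545 to 0.873 early, and its log2 ratio was lower by a difference of -0.83 (adjusted exact p 0.00325). CesA8-B over CesA4 ranged from 0.402 to 0.527 late and from 0.527 to 0.837 early, with a difference of -0.54 (adjusted exact p 0.00325). CesA8-B over CesA7-A moved least of these, with 1.08 to 1.42 late and 0.945 to 1.09 early, a difference of 0.29 (adjusted exact p 0.00519). CesA8-A over CesA4 differed by 0.34 (adjusted exact p 0.0411) with overlapping ranges, and that call was lost without any one of the libraries of 0.5, 1, 48 or 96 h, at values from 0.26 to 0.37.

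The 2 libraries of a time point share that time. Over the 3 late and 3 early means of time points, the exact p was 0.1, the smallest that design allows, in all pairs except CesA8-A over CesA4, where it was 0.3. CesA8-A and CesA8-B are duplicate copies, and how the authors placed reads that fit both is not given in the sources used here, so the split between them is less certain than their sum.

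The ratios that involve CesA8-A were also followed time by time, as a description. CesA8-A over CesA8-B had values of 0.406 and 0.409 (0 h), 0.347 and 0.328 (0.5 h), 0.322 and 0.293 (1 h), and 0.299 and 0.318 (2 h). It then had 0.543 and 0.551 (6 h), 0.516 and 0.583 (12 h), 0.511 and 0.488 (24 h), 0.53 and 0.443 (48 h), and 0.789 and 0.857 (96 h). CesA8-A over CesA7-A had 0.364 and 0.392 (0 h), 0.34 and 0.309 (0.5 h), 0.343 and 0.319 (1 h), and 0.287 and 0.301 (2 h). Its later values were 0.562 and 0.565 (6 h), 0.509 and 0.512 (12 h), 0.55 and 0.543 (24 h), 0.714 and 0.631 (48 h), and 0.885 and 1.10 (96 h). Both ratios were higher in both libraries of 6 h than in both of 2 h, and in both of 96 h than in both of 48 h. CesA8-A over CesA7-A was also higher in both libraries of 48 h than in both of 24 h. The 0 h values of both ratios, from tables that differ in kind, lie above every early library and below every library from 6 h on. How often other pairs of loci show any of these orders was not counted. CesA7-A over CesA4 and CesA8-B over CesA4 peaked at 2 h instead, at 0.873 and 0.773 for the first and 0.837 and 0.732 for the second. At 0 h they had been 0.597 and 0.531, and 0.534 and 0.509.

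The 2 CesA8 copies together spanned a ratio to CesA4 of 0.636 to 1.09 over the 16 libraries after cutting. CesA8-A alone spanned 0.173 to 0.344 and CesA8-B alone 0.402 to 0.837. The summed FPKM of both copies relative to CesA4 came to 0.718 and 0.70 (0.5 h), 1.09 and 0.964 (2 h), 0.636 and 0.673 (24 h), and 0.735 and 0.746 (96 h). Over CesA7-A the same sum came to 1.32 and 1.25 (0.5 h), 1.25 and 1.25 (2 h), 1.62 and 1.66 (24 h), and 2.01 and 2.38 (96 h). CesA7-A is 1 of 2 known CesA7 copies, so the total of that subunit is not given by these values.

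**Figure D4:**
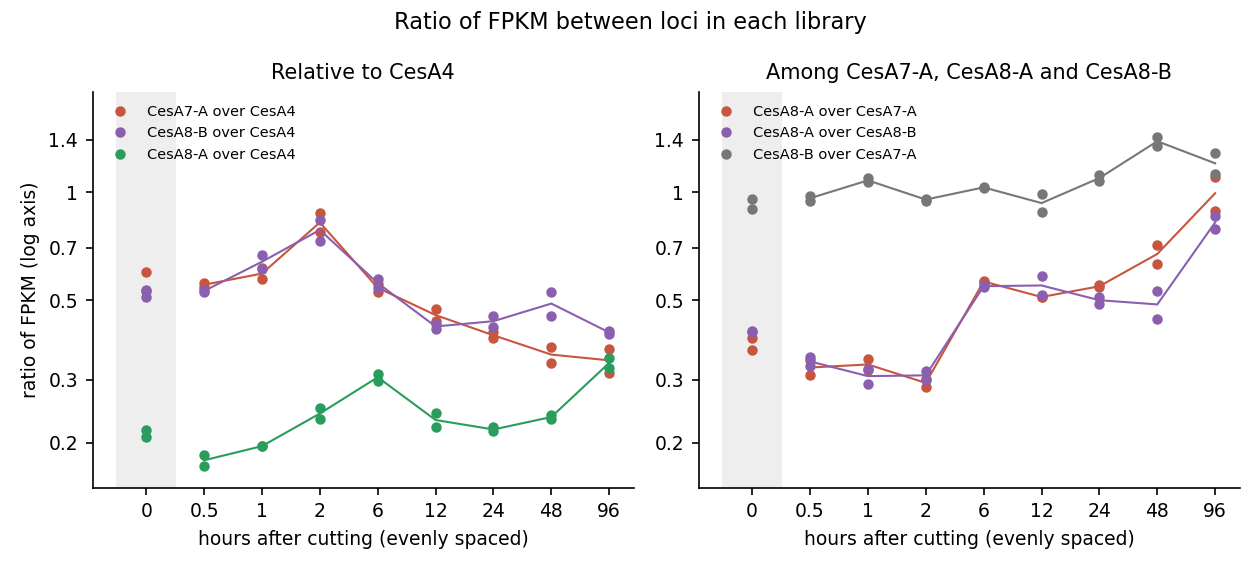
Ratio of FPKM between loci (vertical, log axis) in each library (points) against hours after cutting (horizontal, evenly spaced), with lines through the means of 2 libraries after cutting and the 0 h tables on grey. On the left CesA7-A and CesA8-B relative to CesA4 peak at 2 h, and on the right CesA8-A over CesA8-B steps up to 0.543 and 0.551 at 6 h.

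Within a locus the shares of the transcripts changed little after cutting. After cutting, transcript 1 of CesA7-A held 48.3% to 53.3% of the locus and transcript 2 the rest, and transcript 2 of CesA8-B held 61.1% to 66.1%. Early libraries lay within 51.6% to 53.1% for the first and 63.2% to 64.8% for the second, and late libraries within 49.9% to 53.3% and 61.1% to 66.1%, so the ranges overlap. At 0 h the shares were 88.2% and 86.6% for transcript 1 of CesA7-A and 99.9% and 99.8% for transcript 2 of CesA8-B. CesA4 and CesA8-A have 1 listed transcript each.

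The 4 loci also deviated together between the libraries of a time point. In 7 of 9 time points the same library was the higher one for all 4, with 48 and 96 h as the exceptions. How often this holds for other sets of loci was not counted, so it is not shown to be particular to these genes. The widest gaps were at 2 h and at 12 h, where library 1 exceeded library 2 by a factor of 1.44 in CesA8-B and 1.28 in CesA8-A. At 48 h no gap exceeded a factor of 1.10. Over the 16 libraries after cutting, Pearson's r of log2(FPKM + 1) was 0.994 for CesA8-B and CesA7-A (Spearman's rho 0.974), the closest pair. It was 0.92 for CesA8-A and CesA8-B (rho 0.874), the most distant. These values describe libraries that share the time course, in pairs of the same time point.

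Loci with the most similar course were sought among 10924 others with a mean of at least 5 FPKM and time point means that spanned at least 1 on the log2 scale after cutting. Of these, 134 (1.23%) had a Pearson's r of at least 0.9 over 16 libraries with the mean standardised course of the 4 genes, and 41 reached 0.95. The nearest was Potri.017G016700, with r = 0.99 (Spearman's rho 0.971) and means of 17.3 FPKM at 0.5 h, 9.27 FPKM at 24 h and 4.14 FPKM at 48 h. The next was Potri.001G416800, with r = 0.986 (rho 0.971) and means of 76.0 FPKM at 0.5 h, 34.5 FPKM at 24 h and 13.1 FPKM at 48 h. The files give neither a name. With the 0 h libraries included, r was 0.853 for the first, whose 0 h mean is 8.23 FPKM, and 0.984 for the second.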

How the data were processed

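RNA of 18 libraries was measured, 2 at each of 9 time points. The authors deposited 1 table per library with transcript identifiers and FPKM, a unit that the file headers name for the 0 h tables and that the steps of the values bear out for the others. The submitters' processing notes list Bowtie2 2.2.3 and HISAT2 2.1.0 but not what each did; build, annotation and counter: not given in the sources used here.

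FPKM were summed per locus. Loci with at least 1 FPKM in at least 2 libraries were tested with limma 3.58.1 in R 4.3.3 on log2(FPKM + 1), with trend and robust estimation, two-sided, and Benjamini-Hochberg adjustment over all tested loci within each comparison; loci with an adjusted p below 0.05 were called. Read totals that give whole lengths in low FPKM values were searched within a bounded range. Most low values were taken as 1 or 2 reads, so the best fit was doubled, and this factor was assumed. All 60197 transcripts above 0 in at least 6 libraries after cutting then gave whole reads within 0.01 reads plus the rounding of the values. The limma steps were tried on simulated data in which few loci changed, and only between the late and early phases. Far more loci were called in the real data, so that trial does not test the calls at such breadth. The 4 loci, the phases and the tests were chosen with earlier results of these data known. The loci named beside the 4 are the 2 with the highest correlation by a fixed rule. Planned lists of other cell wall genes and of cell type markers could not be matched to identifiers and were not analysed here. Alternatives covered the pseudocount, filter, scaling, libraries, transcript, variance model, block and each left-out library.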

Additional observations from a re-analysis of the deposited data

How the results depend on the processing

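For each of the 4 loci the late against early and the 96 h against 0.5 h change kept its direction and its call under all 28 alternatives, as did 48 h against 24 h and 24 h against 0.5 h. Many of these alternatives could not change the direction. Settings of the filter, variance model and block, and libraries left out of other time points, leave the fold change as it is. Only the call could change there. The leading transcript likewise leaves CesA4 and CesA8-A as they are, with 1 listed transcript each. The late against early log2 fold change ranged from -2.49 to -2.33 for CesA7-A and from -1.34 to -1.15 for CesA8-A. Against 0 h, the leading transcript in place of the sum gave -0.684 for CesA7-A and -0.533 for CesA8-B at 0.5 h, where the sum gave values above 0 that were not called; the 0 h tables divide these loci differently.

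Of the pair ratios, the call for CesA8-A over CesA4 was lost without single libraries, with values from 0.259 to 0.401 over the left-out libraries. Quantile normalization raised the loci called lower in the late phase to 9254, from 7275, with 11372 higher in place of 13653. Library numbers gave no clear pairing of the samples. The 36 correlations of deviations between same-numbered libraries ranged from -0.197 to 0.21, and 3 exceeded 0.1. Whether some time points shared a preparation was not tested. A replicate block by library number cannot change a fold change, because every time point holds both numbers. No call of the 4 loci changed with this block either. With limma-voom on recovered reads, added after seeing the data, CesA8-B was also called lower at 6 h than at 2 h, at -0.394. The calls of 0.5 to 1 h, 2 to 6 h and 6 to 12 h, and those of CesA8-A at 96 h against 24 and 48 h, were lost without single libraries, as given above. The CesA8-A call of 6 h against 2 h was also lost under 5 other settings (no filter, quantile normalization, equal upper quartile, only the libraries compared, no trend and no robust estimation), with adjusted p of 0.0515 to 0.111, and that of 1 h against 0.5 h with equal upper quartile, at 0.0726.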
